A study of Drosophila melanogaster with 6 samples.

Results

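The transcribed pseudogenes of the *Drosophila* wing disc are described here as the genes with a FlyBase symbol of CR and a number that the annotation classes as pseudogenes and that had at least 10 counts summed over the libraries. The annotation holds 280 genes of this kind, of which 257 had an entry in the count tables, and 88 of the 257 reached 10 counts. A further 131 had no count in any library, and 38 had between 1 and 9 counts. The tables hold 17471 genes in all, of which 10841 reached the same minimum. The rule took no account of the genotypes, but 12 of the 88 had at most 3 counts in every library of at least one genotype, and those near 0 in one genotype reached the minimum through the other.

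RNA was taken from the wing discs, larval epithelia from which the adult wings develop, of female larvae at the wandering stage, 30 discs to a sample. The *wild-type* group held 3 samples of the w1118 stock, and the mutant group 3 samples from larvae homozygous for dLsd1ΔN, a deletion in the gene for the histone H3K4 demethylase dLsd1 that was made by recombination between transposon insertions. The w1118 stock is inbred but was not made isogenic with the mutant, whose allele is kept over a balancer chromosome, so that the loss of dLsd1 and other differences between the stocks cannot be told apart. All samples were grown at the same temperature and were sequenced on the same lane after selection of polyadenylated RNA. Discs hold several cell types, and in such bulk samples fewer cells of a type and less RNA per cell cannot be told apart.

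A pseudogene is a copy of a gene that is thought to have lost the ability to encode the product of its parent. Some arise when a stretch of the genome is duplicated and keep their introns, and others are copied back from an mRNA and have none. Many are silent, and those that are transcribed depend on a promoter they kept or on sequences next to them. A number of them lie in the heterochromatin around the centromeres and on chromosome Y. From earlier work in ovaries and mammalian cells, the study proposes that dLsd1 takes active H3K4 marks off transposable elements. Because a pseudogene resembles its parent, short reads of the parent can be counted on it and the reverse, and a count may hold reads of either.

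The libraries held 41800330, 13960866 and 45909324 counts in *wild-type* replicates 1 to 3 and 36735120, 42452820 and 35466251 in the mutant replicates. *dLsd1*, listed as Su(var)3-3, had 2136, 676 and 2564 counts in the *wild-type* libraries and 7, 6 and 1 with the mutation, and the wing disc genes of the marker lists were present in every library, with 0 of 9 past the thresholds used below. Of the marker lists for other cell types, 1 gene was past them in each of muscle (Mlc2), haemocytes (NimC1) and fat body (Lsp1alpha, of 5 genes with summed levels of 1990 to 28266 normalised counts over the *wild-type* libraries and 3367 to 16752 over the mutant), and their part in the results was not tested. *Wild-type* replicate 3 stood apart from the other *wild-type* libraries in chromosome 4 and centromere-proximal genes, as described near the end, and *wild-type* replicate 2 had the fewest counts. Nothing in the sources used here says which discs were collected together, and the p-values measure the spread between these samples.

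Levels below are counts as deposited, or normalised counts, which are the counts scaled by the TMM factors of edgeR to a library of average size. The 88 pseudogenes took between 0.0602% and 0.0647% of all counts in each library, a narrow range over both genotypes. They were weakly expressed as a class, with a median of 33.0 normalised counts against 885 for all genes, and per kb of exon a median of 33.8 against 395. In total 75 of the 88 had at least 1 count in all 6 libraries. The number detected lay between 80, in the shallow *wild-type* replicate 2, and 87, in mutant replicate 3.

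Most of this class was not past the thresholds used for differential expression. Genes past the thresholds had an absolute log2 fold change, mutant over *wild-type*, above 0.6 and an adjusted p below 0.1 in edgeR's quasi-likelihood test over all genes and TE families, the thresholds of the study. By this rule 9 of the 88 pseudogenes changed, 4 higher and 5 lower in the mutant, which is 10.2% of them against 6.55% of all genes tested, 4.32% higher and 2.23% lower. Of the 9, 5 (CR41440, CR43087, CR15821, CR42838 and CR43086) were among the 12 pseudogenes with at most 3 counts in every library of at least one genotype, so that passing the count minimum and the difference between the genotypes were not independent for them. Among the remaining 76 pseudogenes 4 were past the thresholds, 5.26%, beside 5.85% of all genes with more than 3 counts in some library of each genotype, so the share over the 88 is not read as a result about the class. Protein-coding genes were past the thresholds in 6.39% of cases (620 of 9705) and non-coding RNA genes in 10.6% (70 of 663). The median log2 fold change of the 88 was 0.11, or 0.09 with genes near 0 in either genotype at their lower bound, against -0.02 for all genes.

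Separation of the genotypes was about as frequent in this class as over all genes. The libraries of the genotypes did not overlap for 23 of the 88, 10 higher and 13 lower in the mutant, which is 26.1%, close to the 25.1% over all genes. Of the 79 pseudogenes that were not past the thresholds, 59 had a log2 fold change within 0.6 of 0. The other 20 lay beyond 0.6, mostly at low counts. Among the 24 pseudogenes with a mean of at least 100 normalised counts, 21 were not past the thresholds, and their log2 fold changes lay between -0.64 and 0.57 with standard errors of up to 0.27. The plot of level against fold change shows these values for each pseudogene.

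**Figure D1:**
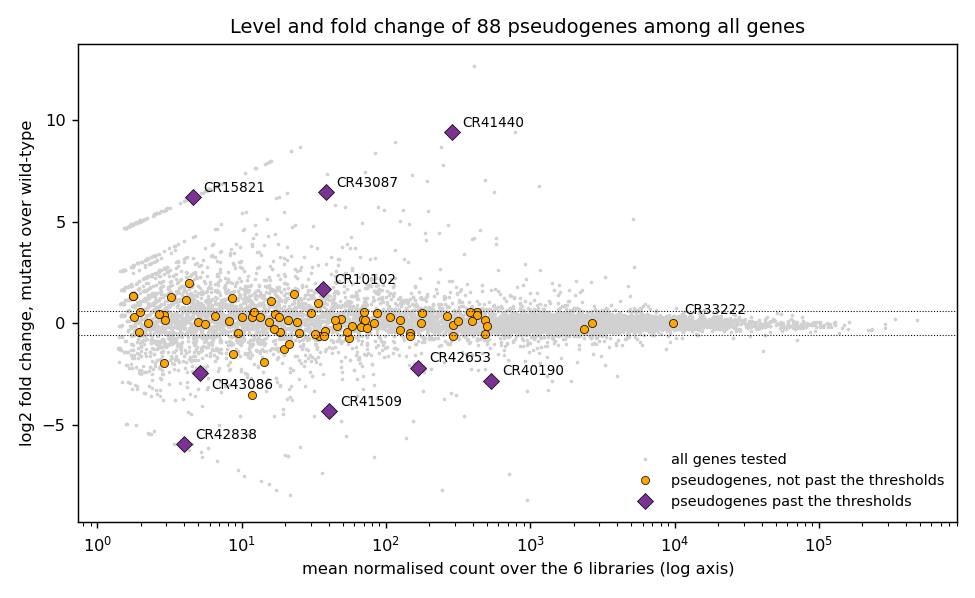
Mean normalised count over the 6 libraries (log axis) and log2 fold change, mutant over *wild-type*, of the 88 pseudogenes and of all genes tested (grey); dotted lines mark 0.6 in either direction. The 9 pseudogenes past the thresholds, drawn as diamonds, lie between -5.94 and 9.40, and the pseudogenes at the highest levels lie close to 0.

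The most abundant pseudogene was CR33222 on X, which alone took between 34.8% and 47.3% of the counts on the class in each library. It had 12131, 4268 and 9630 counts in w1118 discs, compared to 10459, 11793 and 9234 in *dLsd1* mutants, or 9788 ± 1838 and 9788 ± 701 normalised counts (SD, n = 3). The libraries overlapped, and the log2 fold change was 0.00 (standard error 0.16). CR33222 overlaps RpS6, the gene of a protein of the small ribosomal subunit, on the same strand over 58.6% of its length, so that reads of the gene and the pseudogene may be shared. Its counts were 10.6%, 8.91% and 9.48% of those of RpS6 in *wild-type* and 9.25%, 9.14% and 11.3% in *dLsd1* discs. These shares overlapped (two-sided exact permutation test p = 0.7, with 0.1 the smallest p that 3 against 3 libraries allow, and 8 ratios of this kind compared).

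Of the next 4 pseudogenes by mean level, CR40190 changed and is described further on, and the other 3 were not past the thresholds. CR18217 on 3L had 2989, 1208 and 2877 counts for *wild-type* and 2389, 3338 and 2906 for *dLsd1* mutants (log2 fold change 0.00, standard error 0.14). It touches the gene Apl on the opposite strand over 12 bp, and its count relative to that of Apl overlapped between the genotypes (exact permutation p = 0.7). CR43482 on 3L had 2998, 844 and 3659 counts in *wild-type* against 2352, 2455 and 1972 for the mutant, and its log2 fold change was -0.29 (standard error 0.14) with an adjusted p of 0.309 in edgeR. It begins 418 bp from Hsp27, a small heat shock protein gene, on the same strand, and its counts were between 2.14% and 2.88% of those of Hsp27 in all 6 libraries (exact permutation p = 0.4). CR44906 on 2L, with no overlapping gene, had 681, 184 and 628 counts in the *wild-type* libraries and 393, 560 and 601 with the mutation (log2 fold change -0.12, standard error 0.17). Per kb of exon CR33222 also led, at 16286 normalised counts, followed by CR43482 at 6660, CR18217 at 1276, CR44383 at 1144 and CR6900 at 955.

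The 9 pseudogenes that changed included pairs of close neighbours. The plot of these 9 by library shows that the genotypes were apart for each of them. CR41440, CR43087, CR15821 and CR10102 were higher in the mutant. CR40190, CR42653, CR41509, CR42838 and CR43086 were lower. None of the 9 overlaps another gene, whereas 25 of the 88 do, 18 on the opposite strand and 7 on the same strand, and over all genes 5.92% of those with an overlap and 7.33% of those without were past the thresholds. For 5 of the 9, another gene within 5 kb was past the thresholds in the same direction, beside 25.6% (180 of 704) of all genes past them that are on the annotation. Of these, CR40190 and CR42653 count through each other and may share reads. CR41440 and CR15821 had at most 3 counts in every *wild-type* library. With 9 genes this share is a description.

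**Figure D2:**
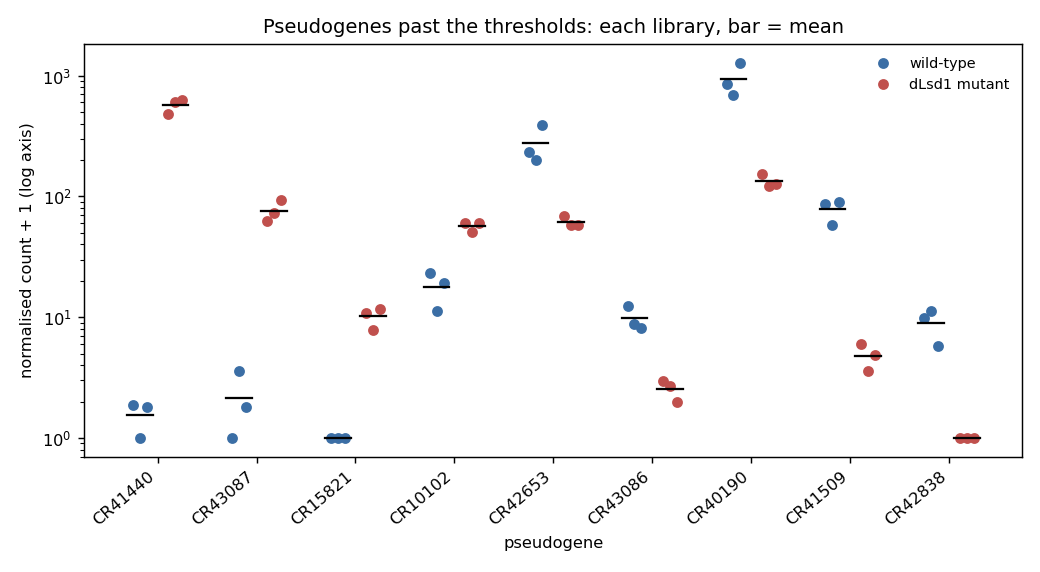
Normalised count plus 1 (log axis) of the 9 pseudogenes past the thresholds in each *wild-type* and *dLsd1* mutant library; the bar is the mean of 3 libraries. CR41440 goes from 0.56 to 570 mean normalised counts, CR40190 from 937 to 133, and CR42838 and CR15821 are at 0 in every library of one genotype.

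CR41440 showed the largest change of the class. This gene (FBgn0084049, 2 exons, plus strand of 2R, 4731514 to 4732343 in the dm6 coordinates) had 1, 0 and 1 counts in w1118 discs, compared to 484, 710 and 643 in *dLsd1* mutants. The fitted log2 fold change reached 9.40 (standard error 0.32, adjusted p = 3.71e-06 by edgeR), and 0.56 ± 0.49 became 570 ± 79.7 normalised counts (SD, n = 3), at least 134-fold higher against a floor of 3 counts per library. Its mean over the 6 libraries, at 537 normalised counts per kb of exon, was the sixth of the class, nearly all of it from the mutant libraries.

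The neighbourhood of CR41440 differed from gene to gene. The long non-coding RNA gene lncRNA:CR45471, 119 bp away on the same strand, had 3, 0 and 3 counts for *wild-type* and 407, 571 and 615 for *dLsd1* mutants, at least 116-fold higher. Another pseudogene, CR40282, lies on the opposite strand, 273 bp from CR41440 and with 94.8% of its length inside the span of lncRNA:CR45471. Its counts were 28, 11 and 28 in *wild-type* against 41, 44 and 28 for the mutant, which overlap at 28 (log2 fold change 0.50, standard error 0.34, adjusted p = 0.46 by edgeR). The counts gained by the genes on the plus strand were thus not found on CR40282. Nipped-B, which encodes the loader of cohesin onto chromosomes and lies in the same region, had 1504, 616 and 9863 counts in the *wild-type* libraries and 1563, 2384 and 4110 with the mutation, with overlap and a fitted log2 change of -0.51 (standard error 0.79).

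CR43087 and CR43086 are neighbours on 3L that moved in opposite directions. CR43087 (17874715 to 17876573, plus strand, 3 exons) had 0, 1 and 1 counts in w1118 discs, compared to 62, 84 and 95 in *dLsd1* mutants, at least 17.6-fold higher (log2 fold change 6.44, standard error 0.65, adjusted p = 0.000982 by edgeR). CR43086, 4142 bp away on the same strand and also with 3 exons, had 13, 3 and 9 counts for *wild-type* and 2, 2 and 1 for *dLsd1* mutants, at least 3.12-fold lower (log2 fold change -2.43, standard error 0.64). These groups did not overlap, but with so few counts the call was weak, at an adjusted p of 0.0725 in edgeR, 0.109 with the replicate number as a block, and 0.152 in DESeq2. Together the pair went from 9.91 ± 1.77 to 76.6 ± 15.5 normalised counts (SD, n = 3). An INE-1 element, a short transposon that is common in the fly genome, covers 26.9% of CR43087 and 25.1% of CR43086 in the annotation. The protein-coding gene nearest to CR43087 with enough counts, CG7408, lies 2523 bp away and showed a log2 difference of 0.22 (adjusted p = 0.465 by edgeR).

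CR10102 lies in the cluster of Arc genes, and all 3 genes of the cluster were higher in the mutant. It lies on the minus strand of 2R (14360433 to 14361780, 1 exon), carries the synonym Arc3 in the RefSeq table, and sits between Arc1 and Arc2. Arc1 is the fly relative of the neuronal gene Arc and encodes a protein derived from a retrotransposon Gag that assembles into capsids. CR10102 had 25, 4 and 23 counts in *wild-type* against 60, 59 and 61 for the mutant, without overlap, which is 16.9 ± 5.98 and 56.3 ± 5.33 normalised counts (SD, n = 3; log2 fold change 1.66, standard error 0.35, adjusted p = 0.0307 by edgeR). Without any 1 of the mutant libraries its adjusted p was between 0.112 and 0.123.

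Both neighbours of CR10102 rose as well. Arc1, 136 bp away on the same strand, had 210, 61 and 139 counts in the *wild-type* libraries and 656, 667 and 537 with the mutation (log2 fold change 1.95, standard error 0.20, adjusted p = 0.00117 by edgeR). Arc2, 144 bp away on the opposite strand, had 104, 27 and 95 counts in w1118 discs, compared to 239, 224 and 240 in *dLsd1* mutants (log2 fold change 1.47, standard error 0.20, adjusted p = 0.00445 by edgeR). Relative to Arc1, the counts of CR10102 were 11.9%, 6.56% and 16.5% in *wild-type* and 9.15%, 8.85% and 11.4% in *dLsd1* discs, which overlap (exact permutation p = 0.6). Relative to Arc2 they were 24.0%, 14.8% and 24.2% in *wild-type* and 25.1%, 26.3% and 25.4% in *dLsd1* discs. Here the genotypes did not overlap, with a difference of 0.27 in the log2 ratio (exact permutation p = 0.1, adjusted over the 8 ratios 0.4), and without 1 library the difference ranged from 0.07 to 0.37.

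CR15821 was seen in the mutant only, at few counts. It lies on the minus strand of 3L (2171644 to 2172773, 3 exons), with 0 counts throughout *wild-type* and 10, 8 and 11 for the mutant libraries, at least 2.15-fold higher when *wild-type* is set to a floor of 3 counts per library. Its fitted log2 fold change of 6.20 had an adjusted p of 0.0313 in edgeR, which went to between 0.103 and 0.119 without any 1 of the mutant libraries. CG5704, 673 bp away on the same strand, had 657, 149 and 819 counts for *wild-type* and 946, 1052 and 1106 for *dLsd1* mutants (log2 fold change 0.84, standard error 0.19, adjusted p = 0.0424 by edgeR). The closer gene CG15820 had 13, 2 and 4 counts in *wild-type* against 7, 11 and 2 for the mutant, which overlap.

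**Figure D3:**
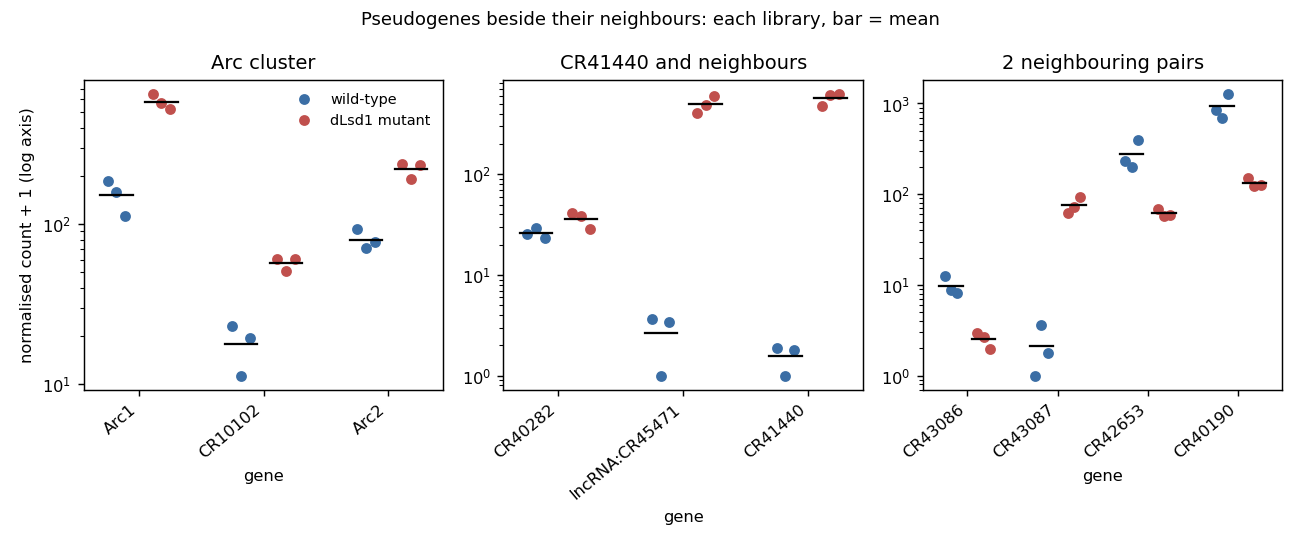
Normalised count plus 1 (log axis) in each library for pseudogenes and the genes beside them; the bar is the mean of 3 libraries. Arc1, CR10102 and Arc2 are all higher in the mutant, lncRNA:CR45471 and CR41440 rise from near 0 while CR40282 overlaps between the genotypes, CR43086 and CR43087 move in opposite directions, and CR42653 and CR40190 both fall.

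CR40190 and CR42653 are tandem pseudogenes near the centromere of 2R that fell together. CR40190 (1211067 to 1213666, plus strand, 6 exons) had 961, 267 and 1603 counts in the *wild-type* libraries and 153, 142 and 130 with the mutation, or 937 ± 305 and 133 ± 16.2 normalised counts (SD, n = 3; log2 fold change -2.82, standard error 0.24, adjusted p = 0.000617 by edgeR). CR42653 (1207416 to 1209312, plus strand, 5 exons) ends 1755 bp before it. It had 266, 77 and 490 counts in w1118 discs, compared to 68, 67 and 59 in *dLsd1* mutants, or 274 ± 102 and 60.6 ± 5.78 normalised counts (log2 fold change -2.19, standard error 0.28, adjusted p = 0.00312 by edgeR). Within *wild-type* both were highest in replicate 3, by 1.51 and 1.67 times over the higher of the other libraries in normalised counts.

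The decrease was not equal in the pair. The counts of CR40190 were 361%, 347% and 327% of those of CR42653 in *wild-type* and 225%, 212% and 220% in *dLsd1* discs, which do not overlap. The log2 ratio was lower by 0.66 in the mutant, between 0.62 and 0.69 without any 1 library, and the exact permutation p was 0.1, the smallest possible (adjusted over the 8 ratios, 0.4). Since these pseudogenes may share sequence, reads could be assigned to either. Both stayed past the thresholds without any 1 of the 6 libraries, as did CR41440, CR43087 and CR41509.

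CR41509 is annotated on chromosome Y, although the larvae were female. It lies on the minus strand of Y (3041350 to 3042787, 4 exons) and had 97, 22 and 112 counts for *wild-type* and 5, 3 and 4 for *dLsd1* mutants. This is 77.1 ± 17.8 against 3.80 ± 1.20 normalised counts (SD, n = 3; log2 fold change -4.33, standard error 0.41, adjusted p = 0.000706 by edgeR). No library of the mutant reached the lowest of *wild-type*.

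Most other genes of chromosome Y gave little or no signal in these libraries. Of its 113 genes in the count tables, 100 had 0 counts in every library, among them the male fertility genes kl-2, kl-3, kl-5 and ORY, and 22 of the 23 protein-coding genes of the chromosome. The exception was FDY, a copy of the autosomal gene vig2, which had 369, 113 and 410 counts in *wild-type* against 357, 441 and 299 for the mutant (log2 fold change 0.11, standard error 0.14). No male discs were sequenced, so the 0 counts of the fertility genes are not read as a result on the sex of the larvae. Of the 61 CR pseudogenes on Y in the tables, 6 reached 10 counts (9.84%), against 82 of the 196 on other chromosomes (41.8%). The other 5 on Y had overlapping genotypes. CR40801 had 48, 18 and 32 counts in the *wild-type* libraries and 25, 37 and 23 with the mutation. CR41506, 4819 bp from CR41509 on the opposite strand, had 19, 3 and 36 in w1118 discs, compared to 9, 16 and 25 in *dLsd1* mutants. CR46157 had 16, 9 and 12 for *wild-type* and 16, 20 and 13 for *dLsd1* mutants. CR41507 and CR46186 had at most 14 counts in any library. Whether the counts on these genes came from similar sequences elsewhere in the genome was not tested.

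CR42838 had the smallest counts among the pseudogenes that fell. It is a gene of 1 exon on the plus strand of 3L (19424702 to 19424926), with 10, 4 and 6 counts in the *wild-type* libraries and 0 in all mutant libraries, at least 2.83-fold lower against a floor of 3 counts per library (adjusted p = 0.0433 by edgeR). Leaving out *wild-type* replicate 1 gave an adjusted p of 0.176, and leaving out any 1 mutant library gave between 0.101 and 0.124. It lies 519 bp from hpRNA:CR32205 on the opposite strand, a hairpin RNA gene of the kind that gives rise to endogenous small interfering RNAs. That gene had 1490, 519 and 1090 counts in *wild-type* against 1374, 1568 and 1574 for the mutant, which overlap (log2 fold change 0.27, standard error 0.17). CR42838 is also on the arm of *dLsd1*, 801 kb from it. The pseudogene of the class closest to *dLsd1*, CR6434 at 92.1 kb, had 85, 19 and 60 counts in the *wild-type* libraries and 71, 107 and 91 with the mutation (log2 fold change 0.53, standard error 0.28, adjusted p = 0.358 by edgeR).

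CR42842, on 3L beside that region, lies wholly inside a second hairpin gene, hpRNA:CR32207, on the opposite strand. The hairpin gene was lower in the mutant, with 7012, 2274 and 4814 counts in w1118 discs, compared to 2541, 2909 and 2759 in *dLsd1* mutants (log2 fold change -1.05, standard error 0.18, adjusted p = 0.0127 by edgeR). CR42842 had only 4, 13 and 5 counts for *wild-type* and 5, 4 and 3 for *dLsd1* mutants, with overlap and a fitted log2 change of -1.54 (standard error 0.99). The pseudogene thus had at most 13 counts in a library beside at least 2274 for the hairpin gene that covers it.

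Some pseudogenes came close to the thresholds. CR18166 on X had 381, 110 and 399 counts in *wild-type* against 427, 503 and 536 for the mutant, without overlap after scaling, and its adjusted p of 0.0679 in edgeR was below 0.1 while its log2 fold change of 0.54 was below 0.6. CR18275, which lies 555 bp away on the same strand, showed a log2 difference of 0.42 (standard error 0.17), and CG32817, a gene that overlaps both on the opposite strand, had 0.51 (standard error 0.21). CG13373, which also overlaps CR18275 on the opposite strand, had a negative value, -0.30 (standard error 0.13). None of these 4 genes was past the thresholds.

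On the lower side, CR43212 on X had 402, 123 and 485 counts in the *wild-type* libraries and 291, 219 and 217 with the mutation (log2 fold change -0.63, standard error 0.19, adjusted p = 0.109 by edgeR), and it was past the thresholds with the replicate number as a block, at an adjusted p of 0.0866. Its tandem neighbour CR43211, 203 bp away on the same strand, had 40, 17 and 70 counts in w1118 discs, compared to 34, 32 and 27 in *dLsd1* mutants, and its log2 fold change was also -0.63 but with a standard error of 0.33. The ratio of these pseudogenes to each other overlapped between the genotypes (exact permutation p = 0.8). CR43727 on 3L, 90 bp from Smn, had 225, 53 and 246 counts for *wild-type* and 109, 127 and 131 for *dLsd1* mutants (log2 fold change -0.64, standard error 0.21, adjusted p = 0.148 by edgeR). Smn, which encodes a protein needed to assemble spliceosomal particles, was lower in the mutant (log2 fold change -0.60, standard error 0.15, adjusted p = 0.0522 by edgeR).

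Other pseudogenes that were not past the thresholds had differences of unlike size and certainty. CR30029 on 2R had 15, 19 and 5 counts in *wild-type* against 4, 0 and 1 for the mutant, with a fitted log2 change of -3.52 (standard error 1.22, adjusted p = 0.171 by edgeR). In DESeq2 it was past the thresholds, at an adjusted p of 0.0350. CR14117 on 3L had 428, 103 and 488 counts in the *wild-type* libraries and 474, 553 and 622 with the mutation, without overlap after scaling (log2 fold change 0.57, standard error 0.18, adjusted p = 0.13 by edgeR). It overlaps Cul6, a cullin gene on the opposite strand, over 52 bp. Cul6 was higher in the mutant, with 125, 39 and 287 counts in w1118 discs, compared to 373, 433 and 379 in *dLsd1* mutants (log2 fold change 1.30, standard error 0.30, adjusted p = 0.0512 by edgeR). CR40450 on 3L lies wholly inside lovit, a transporter gene, on the same strand. It had 9, 1 and 30 counts for *wild-type* and 37, 29 and 44 for *dLsd1* mutants (log2 fold change 1.43, standard error 0.61, adjusted p = 0.253 by edgeR), while lovit rose from 0, 0 and 2 to 14, 19 and 31 counts (adjusted p = 0.0195 by edgeR).

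For CR12628 the RefSeq table names the parent. This pseudogene on 2L has the synonym Mgstl-Psi and stands for a copy of Mgstl, the gene of a microsomal glutathione S-transferase. In the annotation a transposon of the G3 family covers 100% of its span. Whether its counts came from that transposon or from similar elements was not tested. CR12628 had 24, 6 and 37 counts in *wild-type* against 49, 77 and 24 for the mutant, which overlap (log2 fold change 1.01, standard error 0.45, adjusted p = 0.278 by edgeR). Mgstl itself rose slightly, with 2296, 858 and 2665 counts in the *wild-type* libraries and 3668, 3974 and 2777 with the mutation (log2 fold change 0.61, standard error 0.13, adjusted p = 0.0346 by edgeR). The counts of CR12628 were between 0.699% and 1.94% of those of Mgstl, without a separation of the genotypes (exact permutation p = 0.5). CR46154 and CR46155 on 3R each lie 121 bp from a gene of the heat-inducible Hsp70 cluster, Hsp70Bbb and Hsp70Bb, and had identical counts, 0, 0 and 3 in w1118 discs, compared to 3, 5 and 1 in *dLsd1* mutants. They are therefore best read as 1 measurement, and how reads that match both were divided was not tested.

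By chromosome, the changes were on 2R with 4 of 19 pseudogenes, on 3L with 4 of 20, and on Y with 1 of 6. Over all genes 7.37% were past the thresholds on 2R and 7.37% on 3L. On Y, 7 genes were tested, these 6 and FDY, which was not past them. None of the 13 pseudogenes on 2L, 13 on 3R, 13 on X or 4 on chromosome 4 was past them, beside 6.94%, 5.76%, 5.60% and 4.35% of all genes there. By position, 3 of 21 lay near a centromere and 5 of 57 along the arms, beside 11.4% (31 of 272) and 6.47% of all genes in the same places. CR41440 on 2R and the 4 on 3L (CR43087, CR43086, CR15821 and CR42838) had at most 3 counts in every library of one genotype. For these, passing the count minimum and the difference between the genotypes were not independent. With numbers this small these shares are a description. Of the 9 pseudogenes with an annotated transposon in their span, 3 were past the thresholds, namely CR43086, CR43087 and CR41509, which has a 1360 element over 1.18% of its length, compared with 6 of the other 79. Over all genes the shares were 9.42% with an annotated transposon and 6.34% without. CR43086 and CR43087 are close neighbours and, as said, not independent of the count minimum. The share of 3 in 9 is therefore not read as a result about transposons. Pseudogenes with 1 exon changed in 2 of 32 cases and those with more exons in 7 of 56, beside 5.83% and 6.72% of all genes.

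*Wild-type* replicate 3 had high counts of pseudogenes on chromosome 4 and near the centromeres. In 13 of the 88 its normalised count was above 2 times that of both other *wild-type* libraries, which is 14.8% against 7.31% of all genes. Of these 13, 5 had a mean below 10 normalised counts, among them CR46154 and CR46155 with their identical counts. By position the shares were 14.3% near a centromere and 8.77% along the arms, beside 12.1% and 6.74% of all genes there. The share over the 88 is thus not read as a result about the class. CR32009 on chromosome 4 had 29, 9 and 196 counts for *wild-type* and 38, 44 and 54 for *dLsd1* mutants, so that replicate 3 was 6.12 times the higher of the other 2 after scaling. CR32010 had 18, 6 and 118 counts in *wild-type* against 26, 28 and 52 for the mutant, a ratio of 5.93. CR32011 had 23, 4 and 115 for *wild-type* against 26, 21 and 41 for the mutant, a ratio of 4.52. The fourth pseudogene of chromosome 4, CR43361, had 639, 157 and 941 counts for *wild-type*, a ratio of only 1.33. Of the 92 tested genes of chromosome 4, 46 were above 2 times, and PlexB, a semaphorin receptor gene 845 bp from CR32009, had 1502, 536 and 7617 counts in *wild-type*.

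Away from chromosome 4, the ratio was 3.54 for CR41454, 3.02 for CR40450 and 2.62 for CR40005, all near a centromere. The median ratio was 1.36 over 18 pseudogenes near a centromere and 0.94 over 48 along the arms. The highest on the arms was 2.92, for CR42875. In the same library 0.704% of counts fell on TE families, against 0.397% and 0.322% in the other *wild-type* libraries and between 0.647% and 1.53% in the mutant. The part of this library in the results was measured by leaving it out. Without it, 10 pseudogenes were higher and 7 lower, and the 9 described above were all among them, while the counts of all genes became 1177 and 418. The 6 added as higher were CR12628, CR14117, CR40005, CR40354, CR40450 and CR44003, and the 2 added as lower were CR14798 and CR30029.

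**Figure D4:**
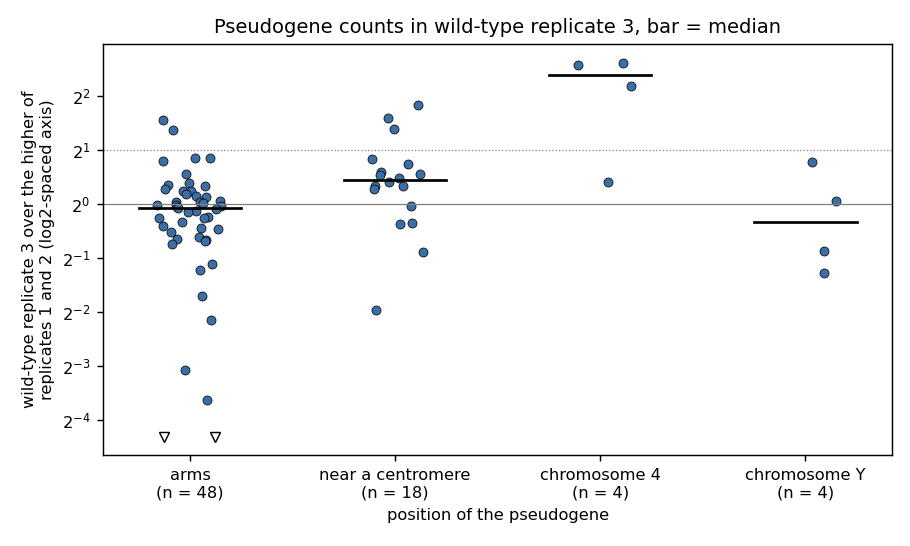
Normalised count in *wild-type* replicate 3 divided by the higher of *wild-type* replicates 1 and 2 (log2-spaced axis), for the 74 pseudogenes with more than 3 counts in either of these; the bar is the median, the dotted line a ratio of 2, and the 2 open triangles are pseudogenes with 0 counts in replicate 3. The medians are 0.94 on the arms, 1.36 near a centromere and 5.23 on chromosome 4.

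At the edge of the rule, CR32496 had 2, 1 and 1 counts in w1118 discs, compared to 1, 2 and 3 in *dLsd1* mutants, 10 in all, and CR43186 had 11, while CR33496 with 9 and CR43669 with 8 were just outside. The 38 pseudogenes with 1 to 9 counts held 42 counts in all over *wild-type* and 81 over the mutant libraries. Of these, 6 had counts in *wild-type* only, 16 in the mutant only and 16 in both, and none has a level that could be tested at this depth. The same split over all genes with 1 to 9 counts was not computed. Among all tested genes with at most 3 counts in every library of one genotype, 553 of 836 had a positive log2 fold change. The split is thus not read as a result about pseudogenes.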

How the data were processed

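RNA-seq counts of 6 libraries, 3 *wild-type* and 3 *dLsd1* mutant, were used. The authors trimmed reads with Trimmomatic 0.36, aligned them to dm6 with STAR 2.5.2a and deposited raw, unnormalised counts per gene and TE family in the format of TEToolkit. The annotation release, strand setting and treatment of reads with several matches are not given in the sources used here. The treatment of multi-mapping reads can move counts between a pseudogene and its parent.

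Positions came from Ensembl release 115 of the dm6 assembly, and 17249 of 17471 genes were matched. All 88 pseudogenes were also found in the RefSeq table by symbol. The sources at hand held no sequences, so no parent gene was sought by similarity and no sequence is shown.

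The 10841 genes and 150 TE families whose counts over all libraries summed to 10 or more were tested in 1 fit with edgeR 4.0.16 in R 4.3.3 (quasi-likelihood F-test, TMM, robust dispersions, Benjamini-Hochberg adjustment). Near a centromere means beyond 22000000 on 2L and X or 23000000 on 3L, and before 6000000 on 2R or 4500000 on 3R. Ratios of counts within a library were compared by an exact permutation test in scipy 1.17.1 on log2 values with 0.5 added. The overlapping partners were set by rule, the other 6 ratios were chosen after the values were seen. Where every library of a genotype had 3 counts or fewer, folds were set against 3 counts per library and given as bounds. The fit was tested on simulated data.

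Libraries of the same genotype were further apart than sampling noise allows, so each counted once. Same-numbered libraries of the genotypes deviated together, with correlations of 0.36, 0.19 and 0.44 over 8300 genes and TE families. Between different numbers the correlations ran from -0.43 to 0.30. The highest of these, *wild-type* replicate 2 with mutant replicate 1, was above the 0.19 of replicate 2 with its own number. A pairing by replicate number is therefore not established. The block was fitted as an alternative only, and the main fit and the permutation tests took no account of it. The named pseudogenes were all those past the thresholds, the 5 most abundant, and those with at most 3 counts per library in one genotype and a mean of at least 10 normalised counts in the other, with overlapping genes and *dLsd1*. The others, and the neighbours, were picked after their values were seen. The members and lists were chosen with earlier results of these data known.

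Alternatives were DESeq2 1.42.0, upper-quartile normalisation, genes without TE families, 3 other filters, stricter thresholds, the block, and the omission of each library in turn.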

Additional observations from a re-analysis of the deposited data

How the results depend on the processing

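Of the 9 pseudogenes past the thresholds, 5 remained so, in the same direction, without any 1 library: CR41440, CR43087, CR40190, CR42653 and CR41509. Over these fits the number higher in the mutant ranged from 2 to 10 and the number lower from 3 to 7, beside 229 to 1177 and 142 to 418 over all genes, and the median log2 fold change of the 88 from 0.00 to 0.22. The high values came without *wild-type* replicate 3. The filter filterByExpr, which kept 65 of the 88, left 3 higher and 3 lower, since the most weakly expressed were not tested. A minimum of 30 counts kept 73 and left 3 and 4. DESeq2 gave 4 and 7. It added CR30029, CR43212 and CR43727 as lower, at adjusted p of 0.0350, 0.0723 and 0.0870, and left out CR43086. A threshold of 1 with an adjusted p below 0.05 gave 4 and 4, with 263 higher and 128 lower over all genes. With the replicate number as a block 4 were higher and 5 lower, 501 and 258 over all genes, and CR43086 (adjusted p = 0.109) gave way to CR43212 (adjusted p = 0.0866) by edgeR; the block changed no other call among the 88. No pseudogene past the thresholds changed direction in the settings run. Among the abundant ones not past them, values near 0 changed sign: over the fits without 1 library, CR33222 ranged from -0.15 to 0.09, CR18217 from -0.10 to 0.12 and CR44906 from -0.28 to 0.01, and CR33222 and CR18217 also were below 0 (-0.02 and -0.03) with a minimum of 30 counts. Upper-quartile scaling, DESeq2 size factors and the fit without TE families shifted the median of all genes by at most 0.02. Depth limits CR15821, CR42838 and CR43086, which rest on at most 13 counts in any library.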

Other observations

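Pseudogenes whose symbols carry another prefix were not part of the 88, and 17 of them reached 10 counts. The histone pseudogene His-Psi:CR33867 was the only one past the thresholds, with 21, 5 and 10 counts for *wild-type* and 51, 61 and 112 for *dLsd1* mutants, without overlap (log2 fold change 2.42, standard error 0.48, adjusted p = 0.0241 by edgeR). The related His-Psi:CR31614 had 0, 0 and 1 counts in *wild-type* against 8, 4 and 2 for the mutant. Tep5Psi, a copy of a thioester-containing protein gene, had 4, 0 and 8 counts in the *wild-type* libraries and 14, 15 and 10 with the mutation (adjusted p = 0.254 by edgeR). The ribosomal RNA pseudogene 28SrRNA-Psi:CR45851 had 4658, 4661 and 7725 counts in w1118 discs, compared to 4480, 5792 and 5531 in *dLsd1* mutants, and as *wild-type* replicate 2 is the shallowest library its normalised level was highest there.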
